A study of Mus musculus with 8 samples.

Results

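The genes described here encode enzymes of glycolysis, the cytosolic route that splits glucose to pyruvate, together with the lactate dehydrogenase that interconverts pyruvate and lactate. They were chosen by name, 1 gene for each of 10 enzyme steps, and were Hk1, Gpi1, Pfkm, Aldoa, Tpi1, Pgk1, Pgam1, Eno2, Pkm and Ldhb. All 10 were among the 22430 genes listed with counts and among the 16730 genes with enough counts to be tested. RNA was taken from brain hemispheres of male C57Bl/6JRj mice, 4 young adults of 6 months (6m) and 4 aged mice of 24 months (24m), for which the labels and methods name no engineered allele and no treatment. Polyadenylated RNA was made into directional libraries, 1 for each mouse, and the comparison was 24m against 6m.

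Glucose is the main fuel of the adult brain. Most steps of glycolysis are encoded by a small family of related genes, and the isozymes differ between cell types: Eno2 is known as the neuronal enolase and Eno1 as the more widely expressed one, while Aldoc is an astrocyte-rich aldolase. Hexokinase, phosphofructokinase and pyruvate kinase catalyse the steps that are regarded as irreversible, and the other steps run near equilibrium. Because RNA came from whole tissue, fewer cells of a type and less RNA per cell cannot be told apart in any value given here.

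Library totals ran from 63460940 to 103462414 counts, the deepest being 24m replicate 1. That library stood apart from the rest of its age: its mean Spearman correlation with the other 24m libraries was 0.9795 and with the 6m libraries 0.9781, whereas the other 24m libraries had 0.9858 to 0.9924 with their own age. Mitochondrially encoded genes took 5.26 to 6.52% of counts in 6m and 3.18 to 3.69% in 24m. The 12 neuron markers were detected in every library and summed to 4756 to 5159 counts per 1e+06 (CPM, scaled by the trimmed mean of M values, TMM) in 6m and 5296 to 6192 in 24m. Among the markers of other cells, the 8 astrocyte markers summed to 518 to 577 CPM in 6m and 1025 to 1131 in 24m, and the 5 red blood cell markers to 5426 to 7605 CPM in 6m and 1242 to 4156 in 24m, the 4156 being 24m replicate 1.

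The genes lie on 7 chromosomes of the GRCm39 assembly, Pgk1 being X-linked, with Eno2 (chr6:124736247-124746636) and Tpi1 (chr6:124787549-124791273) 40.9 kb apart on the same strand. Another annotated gene overlaps 7 of the 10 on the other strand (all but Gpi1, Pgk1 and Ldhb), and since no source read here says whether the counting used strand, reads of such partners cannot be told apart. Pfkm, Aldoa and Pkm are also overlapped by an annotated gene on their own strand, where counting by strand would not separate the reads. To show the sequence ahead of these genes, the 250 bases before the start of the canonical transcript were read from GRCm39 for some of them. These were the 2 genes lower at 24m that hold a match to ACGTG or its reverse CACGT, and Hk1 and Eno2, which were not lower. ACGTG is one form of the core letters bound by hypoxia-inducible factors, and no other form was searched. The bases are written 5′ to 3′ on the strand of the gene with matches in capitals.
Pgk1 (chrX:105230456-105230705, plus strand): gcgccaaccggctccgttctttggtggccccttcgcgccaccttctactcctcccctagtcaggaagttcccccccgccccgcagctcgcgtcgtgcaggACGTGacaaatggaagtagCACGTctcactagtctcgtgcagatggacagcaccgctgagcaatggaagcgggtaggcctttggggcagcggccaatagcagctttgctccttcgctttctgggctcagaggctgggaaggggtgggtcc
Aldoa (chr7:126398427-126398676, minus strand): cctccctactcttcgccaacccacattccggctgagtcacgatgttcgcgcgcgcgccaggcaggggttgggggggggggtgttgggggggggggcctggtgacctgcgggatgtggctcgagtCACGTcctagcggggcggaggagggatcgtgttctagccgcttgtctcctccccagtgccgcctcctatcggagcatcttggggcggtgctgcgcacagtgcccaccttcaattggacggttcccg
Hk1 (chr10:62176322-62176571, minus strand): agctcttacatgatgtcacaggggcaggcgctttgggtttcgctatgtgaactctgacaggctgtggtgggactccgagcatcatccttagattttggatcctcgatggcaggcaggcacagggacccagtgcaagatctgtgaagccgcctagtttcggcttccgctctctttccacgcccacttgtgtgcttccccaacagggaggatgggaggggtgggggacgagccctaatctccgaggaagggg
Eno2 (chr6:124746637-124746886, minus strand): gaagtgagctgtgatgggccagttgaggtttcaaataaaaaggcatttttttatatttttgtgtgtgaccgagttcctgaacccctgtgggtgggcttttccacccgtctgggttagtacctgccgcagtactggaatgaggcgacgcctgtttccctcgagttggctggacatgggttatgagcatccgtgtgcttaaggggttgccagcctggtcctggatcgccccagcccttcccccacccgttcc

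The matches of Pgk1 began 150 and 131 bases before the start, that of Aldoa 126 bases before it. Windows from 250 bases before to 50 bases after the start held ACGTG or CACGT in 4 of the 10 genes (Pfkm, Aldoa, Pgk1 and Pgam1) and in 20.7% of 21770 genes with such a window. The GC box letters GGGCGG or CCGCCC stood in 5 of the 10 (Gpi1, Aldoa, Pgk1, Pgam1 and Pkm) and in 42.5% of all windows. Of the 4 genes with an ACGTG or CACGT match, Aldoa and Pgk1 had negative fold changes that passed the adjusted p described next, whereas Pfkm and Pgam1 passed it in neither direction. Gpi1 and Ldhb, whose negative fold changes passed it as well, held no match.

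The 10 glycolytic enzyme genes moved little with age beside the rest of the transcriptome. A gene was called when the quasi-likelihood test of edgeR gave a p, adjusted over all tested genes after Benjamini and Hochberg, no higher than 0.05 together with a log2 fold change whose size reached 0.58. None of the 10 was called, against 43.6% of all tested genes (25.3% higher and 18.3% lower at 24m). DESeq2 and limma-voom also called none, and 5 of the 10 had an unadjusted p under 0.05 in edgeR, 5 in DESeq2 and 6 in limma-voom. The largest log2 fold change among them was 0.456 in size, and only 43.3% of tested genes changed by no more than that. By the adjusted p alone, 1 gene was higher (Hk1) and 4 were lower (Gpi1, Aldoa, Pgk1 and Ldhb), beside 62.6% of all tested genes (32.7% higher and 29.9% lower). The CPM of the ages did not overlap for 3 of the 10 (Hk1, Pgk1 and Ldhb), beside 55.2% of all tested genes. Among the 409 genes that averaged 400 CPM or more, a floor set after seeing the data so as to lie under the least abundant of the 10, 46.9% were called, 167 of them lower and 25 higher.

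The direction of these small differences depended on how libraries were scaled. With TMM scaling, the median log2 fold change of the 10 genes was -0.209, beside -0.0034 for all tested genes, and 7 of the 10 were negative, but the median turned to 0.003 with library totals alone, 0.172 after quantile normalization, and 0.301 when libraries were scaled by counts per kilobase (a scaling added after seeing the data). Those scalings moved the median of all genes to 0.214, -0.1 and 0.52. Relative to the median of all genes, the members' median was -0.21 with TMM, -0.21 with library totals and -0.22 with the per-kilobase scaling, but 0.27 after quantile normalization. Fold changes below use TMM scaling, and a gene whose sign turns under another scaling is said to do so.

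**Figure D1:**
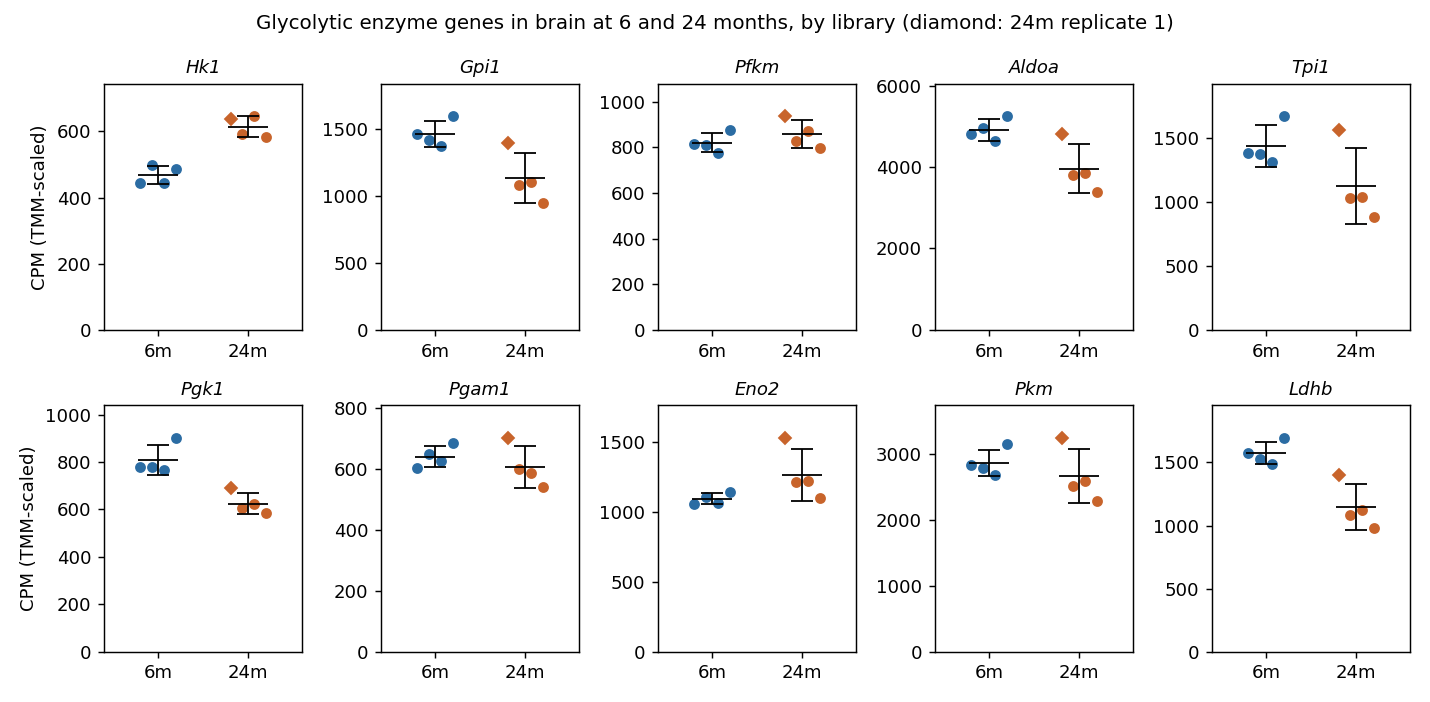
TMM-scaled CPM (vertical axes, linear and starting at 0) of the 10 glycolytic enzyme genes in the 4 libraries of 6m (blue) and of 24m (orange), with the mean and SD in black and 24m replicate 1 as a diamond. The ages do not overlap for Hk1, Pgk1 and Ldhb, and 24m replicate 1 is the highest 24m library for 9 of the 10 genes.

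Hk1 encodes the hexokinase that phosphorylates glucose on entry and docks on the outer mitochondrial membrane. Its TMM-scaled CPM was 444, 497, 444 and 487 in the 6m libraries and 638, 591, 647 and 582 in the 24m libraries, each in the order of replicates 1 to 4 as for all genes that follow. Every aged library lay above every young one. On the log2 scale the difference was 0.39 ± 0.08 (SE, n = 4 per age, edgeR adjusted p = 0.00251), a 1.31-fold level, and was positive under every scaling tried. It was 0.07 (edgeR adjusted p = 0.561) when the trend of counts over exonic length was removed, Hk1 having 8773 bases of exon.

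Gpi1 encodes the isomerase that turns glucose-6-phosphate into fructose-6-phosphate. In 6m it stood at 1463, 1416, 1369 and 1596 CPM, and in 24m at 1395, 1080, 1103 and 947 CPM. Replicate 1 of 24m overlapped the young libraries and the other 3 lay below them. The log2 fold change of -0.37 ± 0.12 (edgeR adjusted p = 0.0254) became -0.48 without that library, turned to 0.14 with per-kilobase scaling, and reached -0.67 with the length trend removed, where Gpi1 was called lower (edgeR adjusted p = 0.00477). The adjusted p was over 0.05 when 6m replicate 1 (0.0539) or 4 (0.0674) or 24m replicate 2 (0.0706), 3 (0.066) or 4 (0.0568) was left out.

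Pfkm encodes the muscle-type phosphofructokinase, which commits sugar to glycolysis. The young libraries held 815, 809, 777 and 877 CPM and the aged ones 938, 828, 871 and 796 CPM, so the ages overlapped. At 0.07 ± 0.09 on the log2 scale, with a 95% interval of -0.10 to 0.24 (edgeR adjusted p = 0.514), no difference was detected, and the value was 0.03 without 24m replicate 1 and turned to -0.26 with the length trend removed.

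Aldoa encodes the aldolase that cleaves fructose-1,6-bisphosphate, and Tpi1 the isomerase that interconverts the 2 triose phosphates it yields. Aldoa had 4803, 4949, 4636 and 5259 CPM in 6m and 4800, 3793, 3853 and 3379 in 24m. Tpi1 had 1384, 1378, 1311 and 1673 CPM in 6m and 1559, 1027, 1037 and 885 in 24m. For both genes 3 aged libraries lay under all young ones and 24m replicate 1 lay among the young. Aldoa was at -0.31 ± 0.12 on the log2 scale (edgeR adjusted p = 0.0464), and it turned to 0.07 after quantile normalization and 0.20 with per-kilobase scaling. That of Tpi1 was -0.35 ± 0.17 (edgeR adjusted p = 0.0984, 95% interval -0.69 to -0.02) and turned to 0.15 with per-kilobase scaling. Without 24m replicate 1 the values were -0.41 for Aldoa and -0.54 for Tpi1 (edgeR adjusted p = 0.001 and 0.000479). Leaving out any other library took the adjusted p of Aldoa over 0.05, to between 0.065 (without 6m replicate 3) and 0.117 (without 24m replicate 2).

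The step that follows, glyceraldehyde-3-phosphate dehydrogenase, is not among the 10 but links both stages of the pathway. Gapdh had 662, 553, 563 and 590 CPM in 6m and 357, 246, 230 and 178 CPM in 24m. It was called lower at -1.23 ± 0.19 on the log2 scale (edgeR adjusted p = 0.000473), and stayed negative under every alternative, from -1.48 to -0.73. Gapdh has many processed pseudogenes in the mouse genome, and since the treatment of reads that map to several places was not stated, its count is uncertain.

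Pgk1 encodes the phosphoglycerate kinase that makes the first ATP of the pathway. It stood at 780, 780, 767 and 903 CPM in 6m and at 688, 606, 621 and 584 CPM in 24m. No aged library reached the lowest young one. This came to -0.37 ± 0.09 on the log2 scale (edgeR adjusted p = 0.00608), a 0.773-fold level, and moved to 0.00 after quantile normalization, 0.15 with per-kilobase scaling and 0.05 (edgeR adjusted p = 0.577) with the length trend removed. Pgk1 has 2244 bases of exon, one of the shortest of the 10.

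Pgam1 encodes the mutase that moves the phosphate within phosphoglycerate. Its CPM was 604, 647, 626 and 683 in 6m and 702, 600, 584 and 540 in 24m, and the libraries of both ages were interleaved. Its log2 fold change was -0.08 ± 0.10 (95% interval -0.27 to 0.12, edgeR adjusted p = 0.513) and -0.14 without 24m replicate 1 (edgeR adjusted p = 0.0861), turning to 0.14 with library totals, 0.28 after quantile normalization, 0.44 with per-kilobase scaling and 0.37 with the length trend removed.

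Eno2 encodes neuron-specific enolase, a serum and tissue marker of neurons. Young libraries held 1055, 1102, 1064 and 1143 CPM and aged libraries 1529, 1208, 1217 and 1099 CPM. Replicate 4 of 24m lay among the young libraries and the other 3 above them. The age difference was 0.21 ± 0.11 on the log2 scale (edgeR adjusted p = 0.12, 95% interval -0.01 to 0.43) and was positive under every scaling tried. It was 0.34 (edgeR adjusted p = 0.00214) with the trend over GC content removed, and 0.42 (edgeR adjusted p = 0.00146) with library totals alone, but 0.12 (edgeR adjusted p = 0.151) without 24m replicate 1 and 0.09 (edgeR adjusted p = 0.488) with the length trend removed.

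Pkm encodes the pyruvate kinase that ends glycolysis, and counts per gene do not separate its M1 and M2 splice forms. It had 2833, 2797, 2695 and 3160 CPM in 6m and 3258, 2521, 2602 and 2293 CPM in 24m, the highest and the lowest library both being aged. The log2 fold change of -0.11 ± 0.12 (95% interval -0.35 to 0.13, edgeR adjusted p = 0.472) turned to 0.11 with library totals, 0.40 after quantile normalization and 0.40 with per-kilobase scaling, and was -0.21 without 24m replicate 1 (edgeR adjusted p = 0.0418). With the length trend removed it was -0.55 (edgeR adjusted p = 0.0362), and with the replicate block as well -0.59 (edgeR adjusted p = 0.0286), where Pkm was called lower.

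Ldhb encodes the heart-type subunit of lactate dehydrogenase, the form abundant in neurons. It stood at 1578, 1531, 1490 and 1698 CPM in 6m and at 1404, 1084, 1123 and 979 CPM in 24m, with no overlap. Its log2 fold change of -0.46 ± 0.12 (edgeR adjusted p = 0.00779), a 0.729-fold level, was the largest of the 10 and turned to 0.05 with per-kilobase scaling. The adjusted p of Hk1, Pgk1 and Ldhb stayed at most 0.05 whichever library was left out.

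The spread within an age was shared by the genes. Among the 24m libraries, replicate 1 was the highest for 9 of the 10 genes and replicate 4 the lowest for all 10. Among the 6m libraries, replicate 4 was the highest for 9 of the 10. The summed CPM of the 10 genes was accordingly 15758, 15906, 15179 and 17480 in 6m and 16912, 13339, 13658 and 12084 in 24m. Red blood cell markers were also highest of the aged libraries in replicate 1 (4156 CPM, the others 1242 to 2123), and their part in this spread was not tested.

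**Figure D2:**
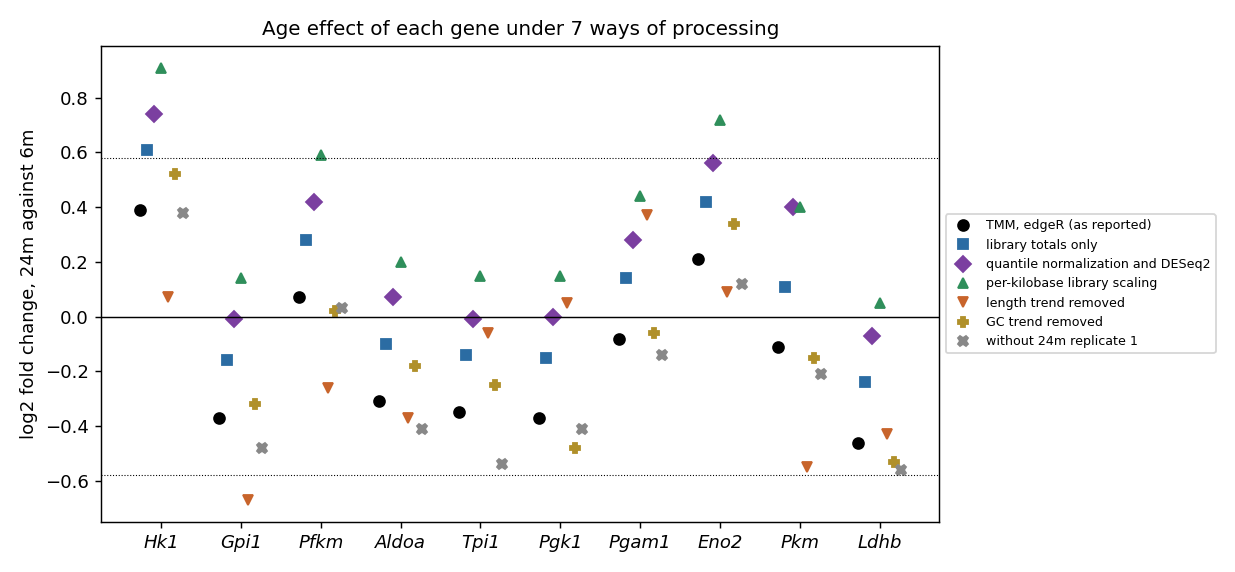
Log2 fold change, 24m against 6m, of each of the 10 genes (vertical axis) under TMM scaling and 6 alternatives, with dotted lines at 0.58 and -0.58. Hk1 and Eno2 are above 0 throughout, whereas the other 8 take both signs.

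A share within the same library does not depend on library scaling, so each gene was also described as its percentage of the summed CPM of the 10, where reads rather than transcripts are counted. These shares did not overlap between ages for 9 of the 10 genes, all but Tpi1. Eno2 made up 6.80 ± 0.216% of the sum in 6m and 9.03 ± 0.0794% in 24m (mean ± SD, n = 4), and Hk1 2.91 ± 0.153% and 4.44 ± 0.475%. The shares of Pfkm (5.10 to 6.18%), Pgam1 (3.98 to 4.35%) and Pkm (17.85 to 19.05%) were higher in 24m as well, given as the mean in 6m to the mean in 24m. On the other side, Ldhb went from 9.79 ± 0.166% to 8.19 ± 0.0923%, Aldoa from 30.55 to 28.25%, Gpi1 from 9.09 to 8.07% and Pgk1 from 5.02 to 4.50%. The 55.2% of all genes given above is for CPM and no such background was computed for these shares. Since the shares add up to the whole, a higher share of one gene lowers the others, and no test was made on them. Removal of the length trend, which moved the fold changes of single genes as given above, was not applied to these shares.

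**Figure D3:**
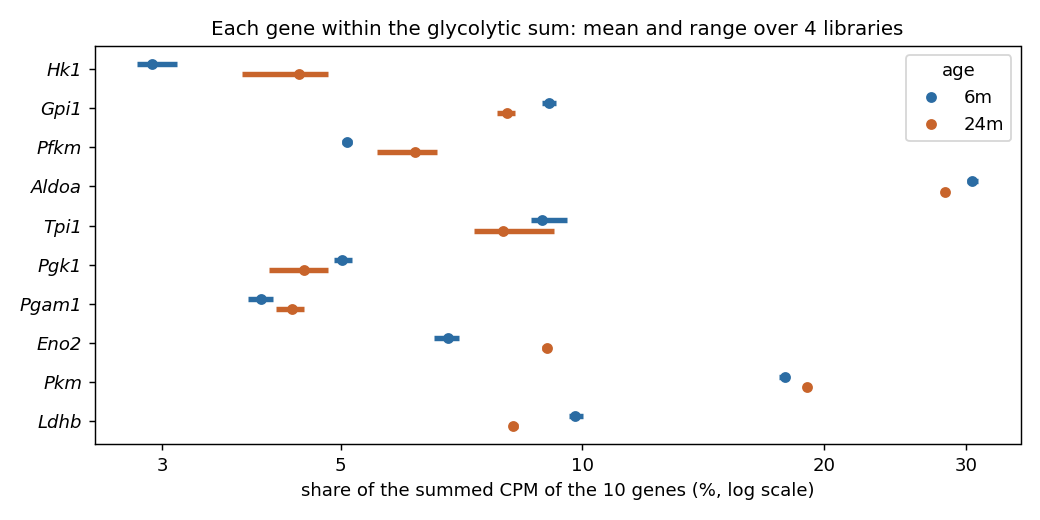
Share of each gene in the summed TMM-scaled CPM of the 10 genes (horizontal axis, log scale), with the mean as a point and the range over 4 libraries as a bar, for 6m (blue) and 24m (orange). The bars of the ages are apart for every gene except Tpi1, and the Eno2 means of 6.80 and 9.03% stand well clear of each other.

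Levels were ordered by transcripts per 1e+06 (TPM), which divides by exonic length, and only within an age, since TPM of all 10 genes was higher at 24m under a scaling that moved the median gene by 0.52. Aldoa led at 6m with 2578 ± 132 TPM, followed by Tpi1 (1462 ± 135), Pgk1 (1015 ± 65.2), Ldhb (988 ± 36.6), Pgam1 (851 ± 53.9), Pkm (604 ± 31.8), Eno2 (509 ± 25.2), Gpi1 (480 ± 21.8), Pfkm (258 ± 9.96) and Hk1 (151 ± 11.98). The ranges of neighbouring genes overlapped for Pgk1 and Ldhb and for Eno2 and Gpi1, though Gpi1 was below Eno2 in 4 of 4 libraries. At 24m the ends of the order were the same genes, with Aldoa at 2956 ± 104 TPM and Hk1 at 284 ± 25.8. Between them Pgam1 (1152 ± 11.1 TPM), Pgk1 (1126 ± 52.0) and Ldhb (1025 ± 43.5) overlapped each with the next, and Eno2 (839 ± 23.1 TPM) stood above Pkm (799 ± 31.0) in 4 of 4 libraries although their ranges overlapped, whereas at 6m it stood below Pkm in 4 of 4. The exonic length is the union of all annotated exons, 13417 bases for Pkm, so TPM understates genes with long alternative exons.

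The isozymes of a step were compared as shares of their summed counts per kilobase, again within a library. Eno2 took 40.8, 42.0, 42.7 and 43.5% of the enolase genes (Eno1, Eno1b, Eno2, Eno3 and Eno4) in the young libraries and 48.4, 48.6, 48.5 and 49.2% in the aged ones. All aged libraries were above all young ones, including 24m replicate 1. The difference was 6.44 percentage points (42.2 ± 1.18% and 48.7 ± 0.336%, SD, n = 4; two-sided exact permutation p = 0.0286, the smallest that 4 against 4 allows, adjusted p = 0.0429 over 6 families). In plain counts, where a division of reads between Eno1 and its near-identical copy Eno1b makes no difference, it was 7.73 points. Taken singly, Eno1 was at -0.29 ± 0.12 on the log2 scale (edgeR adjusted p = 0.0648) and Eno1b at 0.09 ± 0.13. Eno1 turned positive after quantile normalization and with per-kilobase scaling (0.22). Beside this share, the summed neuron markers were higher in every aged library than in any young one, as were the astrocyte markers. Of the 12 neuron markers, 5 were called higher and 1, Tubb3, lower (-0.63 ± 0.14), beside 25.3% and 18.3% of all tested genes. The part of these markers in the Eno2 share was not tested.

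**Figure D4:**
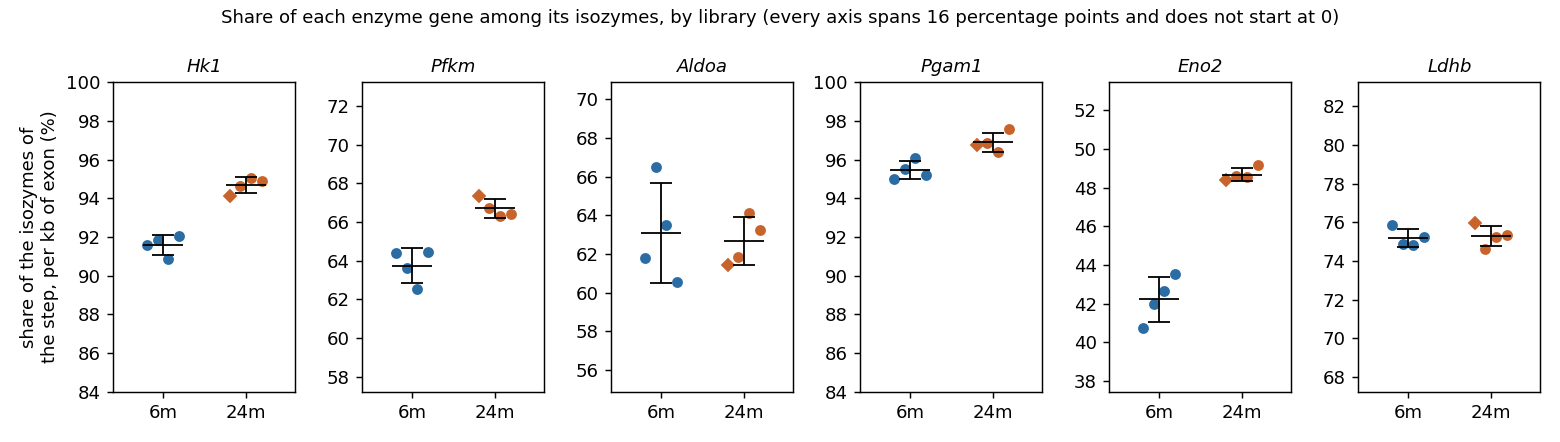
Share of Hk1, Pfkm, Aldoa, Pgam1, Eno2 and Ldhb among the isozyme genes of their step, in percent of counts per kilobase of exon, by library for 6m (blue) and 24m (orange), with mean and SD in black and 24m replicate 1 as a diamond; each axis spans 16 points and none starts at 0. Aged libraries lie above young ones for Hk1, Pfkm, Pgam1 and Eno2, and overlap them for Aldoa and Ldhb.

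Hk1 took 91.6 ± 0.522% of the hexokinase genes in 6m and 94.7 ± 0.416% in 24m, a difference of 3.11 points. Pfkm took 63.8 ± 0.894% and 66.7 ± 0.466% of the phosphofructokinase genes, 2.95 points apart, and Pgam1 95.5 ± 0.478% and 96.9 ± 0.492% of the mutase genes, 1.45 points apart. For each of these 3 the ages did not overlap (two-sided exact permutation p = 0.0286, adjusted p = 0.0429). With 24m replicate 1, 2 or 4 left out, the exact permutation p of Pgam1 was 0.0571 and the p adjusted over the 6 families was 0.0571 for Hk1, Pfkm and Eno2 and 0.0857 for Pgam1, so that none of the 4 passed. In plain counts the difference was 1.80 points for Hk1, 3.06 for Pfkm and 0.702 for Pgam1. In contrast, the share of Aldoa was 63.1 ± 2.59% and 62.7 ± 1.25% (difference -0.431 points, exact permutation p = 0.83, adjusted p = 0.857), and that of Ldhb 75.2 ± 0.47% and 75.3 ± 0.54% (difference 0.1 points, exact permutation p = 0.857, adjusted p = 0.857). Ldha, which encodes the muscle-type subunit, was at -0.47 ± 0.11 on the log2 scale (edgeR adjusted p = 0.00392), close in size to the -0.46 of Ldhb, and both turned positive with per-kilobase scaling, to 0.04 and 0.05. Neither Pgk1 nor Pkm had a further isozyme of at least 1 CPM.

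Of 20 other isozyme genes, 18 were tested, with a median log2 fold change of -0.36. Of these, 6 were called lower and none higher, beside 18.3% and 25.3% of all tested genes. By the adjusted p alone 8 were lower and none higher, beside 29.9% and 32.7% of all tested genes. The called genes included Gapdh, Gapdhs (-0.67), Eno3 (-0.87) and Pgam2 (-0.64). Apart from Gapdh these were expressed at a mean of at most 20.6 CPM in either age, and with the length trend removed Pgam2 turned to 0.07 and Gapdhs came to -0.10 (edgeR adjusted p = 0.355). With per-kilobase scaling, Eno3 was at -0.38 (edgeR adjusted p = 0.0661), and neither Gapdhs (-0.17) nor Pgam2 (-0.14) passed. Aldoc, the most abundant of these genes with 2507 ± 356 CPM in 6m and 2057 ± 398 in 24m, was at -0.29 on the log2 scale (edgeR adjusted p = 0.129), Pfkl at -0.19 (0.11), Pfkp at -0.03 (0.735) and Hk2 at 0.38 (0.0728). Aldoc, Pfkl and Pfkp turned positive after quantile normalization and with per-kilobase scaling (0.22, 0.32 and 0.50), and Pfkl and Pfkp with library totals as well.

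**Figure D5:**
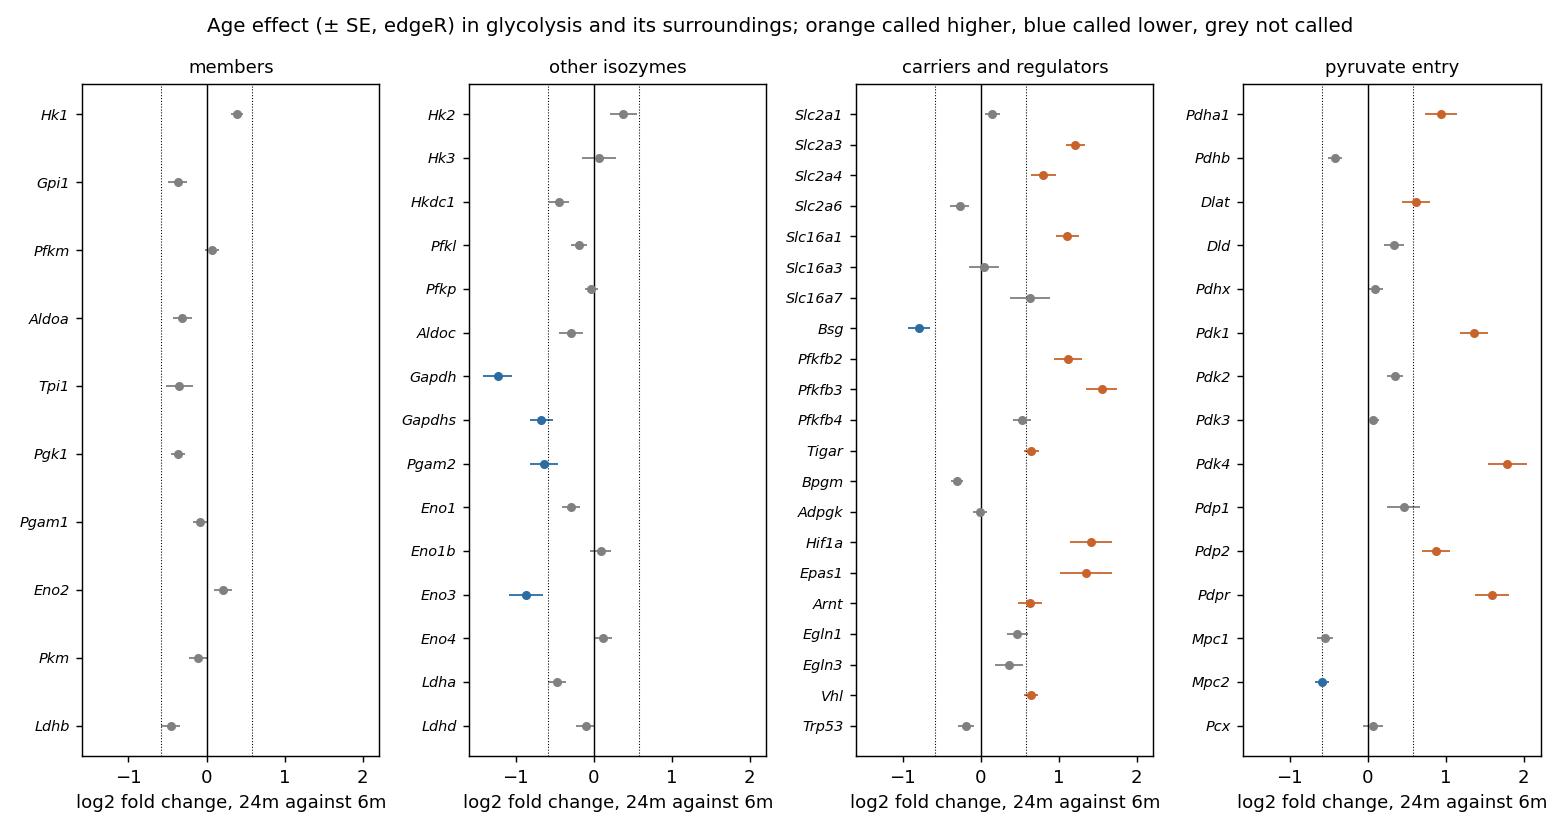
Log2 fold change, 24m against 6m, with its SE from edgeR (horizontal axes) for the 10 enzyme genes, the other isozymes, glucose and lactate carriers with regulators, and genes of pyruvate entry, drawn for a selection of genes of at least 1 CPM on average. Dotted lines mark 0.58 and -0.58; none of the 10 is called, whereas 10 carriers and regulators and 6 pyruvate entry genes are called higher (orange).

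Around the pathway stand genes of sugar and lactate transport and of regulation. Of 22 carriers and regulators, 10 were called higher and 1 lower (median log2 fold change 0.58), 11 in all beside the 43.6% called among all tested genes (25.3% higher), and the difference from the 10 enzyme genes was not tested. Slc2a3, the neuronal glucose transporter, rose from 34.7 ± 4.15 to 80.2 ± 9.92 CPM (log2 fold change 1.21 ± 0.12, edgeR adjusted p = 6.51e-05), whereas Slc2a1, the transporter of the blood-brain barrier and astrocytes, had 63.6 ± 3.20 and 70.7 ± 8.44 CPM (0.15 ± 0.10, edgeR adjusted p = 0.197). The 6 endothelial markers summed to 73.3 to 108 CPM in 6m and 43.9 to 65.8 in 24m. Among them Cldn5 (-1.06) and Ly6c1 (-1.26) were called lower and Flt1 (1.24) higher. The part of endothelial markers in the level of Slc2a1 was not tested. Pfkfb3 and Pfkfb2, whose products make and break fructose-2,6-bisphosphate, the activator of phosphofructokinase, rose by 1.55 ± 0.20 and 1.12 ± 0.18 on the log2 scale, Pfkfb3 from 5.93 to 17.3 CPM. Tigar, which breaks down the same activator, rose by 0.65. The oxygen-responsive factors Hif1a (1.41 ± 0.27), Epas1 (1.35 ± 0.33) and their partner Arnt (0.63 ± 0.15) were called higher, as was Vhl (0.65), which marks Hif1a protein for breakdown. Epas1 was at 19.0 CPM in 24m replicate 1, among the young libraries (16.5 to 23.1), and at 49.8 to 69.0 CPM in the other aged ones. Among carriers of lactate, Slc16a1 rose by 1.11 ± 0.15, Slc16a7 was at 0.63 ± 0.26 (edgeR adjusted p = 0.056) and Slc16a3 at 0.04 ± 0.19. Bsg, a chaperone of lactate carriers, fell from 1269 ± 125 to 735 ± 149 CPM (-0.79 ± 0.14, edgeR adjusted p = 0.00127). All of these genes that were called kept their sign under every alternative, but Arnt came to 0.27 with the length trend removed (edgeR adjusted p = 0.067).

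At the entry of pyruvate into mitochondria, 6 of 15 genes were called higher and 1 lower (median 0.35), beside 25.3% and 18.3% of all tested genes. The kinases that switch off pyruvate dehydrogenase rose in part: Pdk1 by 1.36 ± 0.18 and Pdk4 by 1.79 ± 0.25, Pdk4 from 0.765 to 2.67 CPM, whereas Pdk2, the most abundant, was at 0.35 ± 0.10 (edgeR adjusted p = 0.0109, under the fold threshold) and Pdk3 at 0.07 ± 0.07. Of the genes for the phosphatase that reverses them, Pdp2 (0.87 ± 0.18) and the regulatory Pdpr (1.59 ± 0.22) were called higher, whereas Pdp1, with more counts, was at 0.46 ± 0.21 (edgeR adjusted p = 0.0726). Of the pyruvate dehydrogenase subunits, Pdha1 (0.94 ± 0.20) and Dlat (0.62 ± 0.18) were called higher and Pdhb was lower by the adjusted p alone (-0.42 ± 0.09, edgeR adjusted p = 0.00263). Dlat was at 47.9 CPM in 24m replicate 1, among the young libraries (41.1 to 54.1), and came to 0.08 (edgeR adjusted p = 0.511) with the length trend removed. Both genes of the mitochondrial pyruvate carrier were lower, Mpc2 (-0.59 ± 0.09) past the fold threshold and Mpc1 (-0.55 ± 0.10) short of it, and with per-kilobase scaling they came to -0.08 and -0.04 with edgeR adjusted p of 0.224 and 0.618. The 2 carrier genes had no overlap between ages in TMM-scaled CPM, beside 55.2% of all tested genes. In TPM the ages overlapped for Mpc1 (79.2 to 87.8 in 6m and 79.6 to 85.8 in 24m) but not for Mpc2.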

How the data were processed

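Gene expression was measured by paired-end sequencing of directional polyA+ libraries (NovaSeq) from brain hemispheres of 8 male mice, 4 of 6m and 4 of 24m, grouped by the age and replicate in their labels. Per the methods and the submitters' processing notes, the authors trimmed reads (Trim Galore 0.4.11), aligned them to GRCm39 (HISAT2 2.1.0) and assigned them to genes. The deposited values are raw counts per gene and library, whole numbers without normalization. Strand setting and treatment of multimapping reads were not given in the sources used here. Of 22430 gene identifiers, 22281 matched the GENCODE M39 annotation of GRCm39, from which symbols, positions, exonic lengths and the sequences before start sites were read.

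Replicates of one age were compared first: a chi-square per degree of freedom of 8.18 to 417.15 over 12 pairs showed none within sampling noise. A gene was tested where 4 of the 8 libraries or more held over 5 counts. Tests were made in edgeR 4.0.16 under R 4.3.3 (glmQLFit and glmQLFTest) with a model of age alone on TMM-scaled libraries, and p-values were adjusted over all tested genes (Benjamini-Hochberg). Thresholds and count minimum follow the methods of the study. CPM are counts per 1e+06 scaled with TMM factors, with a prior count of 2 in log2 values. Shares were compared by exact two-sided permutation over the 70 assignments of libraries to ages, whose smallest p is 0.0286. Scripts were tested on simulated data. The depth makes counting error small beside the spread between mice for the 10 enzyme genes, but not for every other gene named. Slc16a7, for example, held 108 to 131 counts in the 6m libraries.

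The members and all lists (other isozymes, carriers and regulators, pyruvate entry, pentose phosphate pathway, glycogen turnover, NADH shuttles and markers of 7 cell types) were chosen with earlier results of these data known. Genes named are all members, other isozymes of at least 1 CPM, and called genes of the pathway lists. Slc2a1, Slc16a3, Slc16a7, Pdk2, Pdk3, Pdp1, Pdhb, Mpc1 and the genes short of the fold threshold in the additional observations were named after their values were seen. A few genes of these lists are counted but not reported here by name. Alternatives were relative log expression factors, library totals, quantile normalization with DESeq2 1.42.0 (without the row-wise median step that the study added), DESeq2, limma-voom (limma 3.58.1), other filters, the replicate number as a block, removal of smoothed trends (lowess, span 0.3) over length or GC content, leaving out each library, and per-kilobase library scaling, which was added after seeing the data.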

Additional observations from a re-analysis of the deposited data

Results flagged for a closer look

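One result stood out among 32 groups of 4 libraries checked (the CPM of each of the 10 genes and the share of 6 genes among their isozymes, in each age). The CPM of Pgk1 in 6m replicate 4 was 903.2, while the other 6m libraries held 767.2 to 780.1, so that the gap to the nearest library was 0.905 of the range of the group, above the critical value of Dixon's test. Chance marks about 1 group in 20 in this way. The same library was the highest of its age for 9 of the 10 genes. Without it, the adjusted p of Pgk1 remained at most 0.05.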

How the results depend on the processing

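Scaling moved the results most. With library totals, 1746 genes were called lower and 75.7% of called genes were higher, against 58.1% with TMM, 47.9% after quantile normalization and 92.9% with per-kilobase scaling, where 7523 genes were called higher and 578 lower. Members called higher numbered 1 with totals (Hk1), 1 after quantile normalization (Hk1) and 3 with per-kilobase scaling, and by adjusted p alone 3, 5 and 6, and 2 with the GC trend removed, with or without the block. Members called lower numbered 1 (Gpi1) with the length trend removed and 2 (Gpi1 and Pkm) with the block as well. Members lower by adjusted p alone numbered 2 with totals, 0 after quantile normalization (DESeq2, 5 with an unadjusted p under 0.05, none of them lower) and 0 with per-kilobase scaling (edgeR, 8 so), and 2 to 6 with each library left out, the 6 being without 24m replicate 1 and the 2 without 6m replicate 1 or 4 or 24m replicate 2, 3 or 4. The median of the members was 0.003, 0.172 and 0.301 in the same order of scalings.

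Log2 fold changes that turned sign were, with library totals, Pgam1 0.14, Pkm 0.11, Pfkl 0.02, Pfkp 0.19 and Ldhd 0.11; after quantile normalization, Aldoa 0.07, Pgk1 0.00, Pgam1 0.28, Pkm 0.40, Hk3 -0.24, Pfkl 0.04, Pfkp 0.26, Aldoc 0.14, Eno1 0.02 and Eno4 -0.22. With per-kilobase scaling they were Gpi1 0.14, Aldoa 0.20, Tpi1 0.15, Pgk1 0.15, Pgam1 0.44, Pkm 0.40, Ldhb 0.05, Hkdc1 0.07, Pfkl 0.32, Pfkp 0.50, Aldoc 0.22, Eno1 0.22, Ldha 0.04 and Ldhd 0.40. Removing the length trend gave Pfkm -0.26, Pgk1 0.05, Pgam1 0.37, Pgam2 0.07 and Eno4 -0.02, and removing the GC trend Ldhd 0.01. With single libraries left out, Hk3 ran from -0.16 to 0.17, Pfkp from -0.07 to 0.00, Eno1b from -0.00 to 0.16, and the share differences of Aldoa from -1.28 to 0.711, Ldhb from -0.121 to 0.318 and Pgam1 from 1.22 to 1.66 percentage points. Why these values moved was not tested. Of 210 values of the 10 genes over all alternatives, 157 kept sign and side of the adjusted p threshold, 22 lost the threshold, 12 gained it and 19 turned. The shares of Hk1, Pfkm and Eno2 among their isozymes kept direction under every alternative run on them. Those were plain counts, isozymes of at least 1 CPM only and each library left out, with no length or GC trend removed. In each, the unadjusted exact permutation p was at its smallest value of 0.0286. However, the p adjusted over 6 families was 0.0571 for these genes without 24m replicate 1, 2 or 4.

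Same-numbered libraries of both ages came from different mice, and their deviations correlated at 0.271, 0.143, 0.078 and -0.348, so the numbers do not pair them. With the replicate block, 4112 genes were called higher and 3130 lower, no member was called, and the adjusted p of Aldoa was 0.0923. With the block and the length trend removed, Pfkm was -0.27, Pgk1 0.05, Pgam1 0.37, Pgam2 0.06 and Eno4 -0.01, and with the block and the GC trend removed Ldhd was 0.01. Not every library correlated best with its own number.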

Other observations

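Side branches of glycolysis showed a mixed pattern. Of 8 pentose phosphate genes, H6pd (log2 fold change 1.37 ± 0.11, 3.33 to 8.62 CPM) was called higher and Pgls, the lactonase of the cytosolic branch, lower (-0.89 ± 0.19, 90.9 to 48.97 CPM, edgeR adjusted p = 0.00267), with a median of -0.11. G6pdx, which encodes the first enzyme of that branch, was at 0.48 ± 0.08 (edgeR adjusted p = 0.000705), below the fold threshold. Of 11 glycogen turnover genes, 3 were called higher and none lower (median 0.33), beside 25.3% of all tested genes called higher and 18.3% lower. Among them were Pygb, the brain glycogen phosphorylase (0.58 ± 0.08, 195 to 292 CPM), and Pgm2l1, which makes glucose-1,6-bisphosphate in brain (2.20 ± 0.37). Pgm2l1 had 7.72 CPM in 24m replicate 1 and 19.1 to 29.7 in the other aged libraries, against 2.75 to 5.08 in 6m. The length trend, once removed, left Pygb at 0.21 (edgeR adjusted p = 0.194).

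Of 10 genes of the shuttles that carry NADH equivalents into mitochondria, 4 were called higher and none lower (median 0.36), beside the same shares. The called genes belonged to the glycerol phosphate shuttle, Gpd1 (0.59 ± 0.09, 69.5 to 105 CPM), Gpd1l (1.65 ± 0.13, 17.5 to 54.9 CPM) and Gpd2 (0.65 ± 0.17), together with Slc25a13 (0.62 ± 0.13, 2.20 to 3.39 CPM), an aspartate-glutamate carrier. Slc25a12, the far more abundant carrier of this kind (142 to 167 CPM), was at 0.23 ± 0.13 (edgeR adjusted p = 0.133). With the length trend removed, Gpd2 came to 0.33 (edgeR adjusted p = 0.0699) and Slc25a13 to 0.23 (edgeR adjusted p = 0.127). In the malate-aspartate shuttle, Mdh1 (-0.33 ± 0.08, edgeR adjusted p = 0.00637) and Mdh2 (-0.52 ± 0.10, edgeR adjusted p = 0.00141) were lower and Got1 (0.22 ± 0.08, edgeR adjusted p = 0.0325) and Got2 (0.48 ± 0.09, edgeR adjusted p = 0.00159) higher, all short of the fold threshold.

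Among cell markers, 5 of 12 neuron genes were called higher and 1 lower (median log2 fold change 0.41), 6 of 8 astrocyte genes higher (1.30), 2 of 8 oligodendrocyte genes higher (0.04), 2 of 7 microglia genes higher (0.34), 1 of 6 endothelial genes higher and 2 lower (-0.14), 2 of 5 choroid plexus genes higher (-0.28) and 5 of 5 red blood cell genes lower (-1.42). Of all tested genes, 25.3% were called higher and 18.3% lower. Summed oligodendrocyte, microglia and choroid plexus markers overlapped between ages.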
